A study of Homo sapiens with 6 samples.

Results

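Acetylated histone H4 was followed at 10 immediate early response genes, IER2, IER3, IER5, BTG1, BTG2, ZFP36, ZFP36L1, DUSP1, NR4A1 and KLF6, in the lung adenocarcinoma line H1975 after knockdown of the acetyltransferase TIP60. The genes were picked by name, and a region counted as a promoter region of a gene when its centre lay within 1000 bp of one of the gene's start sites in the deposited annotation. Of the 10 genes, 9 had such a region in each of 2 deposited tables, against 11541 genes in all in the shTIP60-B table and 11549 in the shTIP60-C table. The members had 18 promoter regions with shTIP60-B and 19 with shTIP60-C, because a place found in both libraries of a table is listed as a knockdown copy and a control copy. BTG2 was the gene with none among the regions used here.

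H1975 is an established human non-small cell lung cancer line that carries mutant EGFR. All libraries came from H1975 cells with a doxycycline-inducible hairpin, kept in 0.5 ug/ml doxycycline for 2 days, so the control cells received the drug and a hairpin too. The groups were shControl, shTIP60-B and shTIP60-C, each with 1 H4ac library (a ChIP with an antibody against acetylated histone H4) and 1 input library. The inputs were not used here, and the labels do not say whether the hairpin lines were pools or clones. With 1 library per group, differences could not be set against a spread between replicates, and every p compares libraries, not conditions.

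Each table set 1 knockdown library against the same control library. It held 63299 regions with a median of 49 shTIP60-B and 57 control reads, or 66546 regions with a median of 111 shTIP60-C and 57 control reads. The log2 ratio of knockdown over control, called M here as in the deposited tables, was rescaled by the authors, so values are relative to other regions and a loss shared by all regions was not measured. Chromosomes differed as a whole with shTIP60-B, where the median M ran from -0.69 on chromosome 20 to 0.25 on chromosome 10, and little with shTIP60-C, from -0.10 to 0.09. Each M is therefore also given centred, that is minus the median M of all regions of its chromosome. The promoter of KAT5, the gene of TIP60, had M = 0.20 (-0.01 to 0.41) and 0.21 (0.04 to 0.39), which does not check the knockdown because a hairpin acts on the transcript. Of 7 epithelial marker genes 7 had a promoter region in each table, and of 7 markers of other cell types 1 had one (COL1A1). Intervals in parentheses are 95% counting intervals from the read counts and cover counting error only.

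Immediate early genes are transcribed within minutes of a growth factor or stress signal, without new protein synthesis, because their promoters are held ready and bound by factors that MAP kinases and calcium signals activate. Histone acetylation marks such promoters, and TIP60, which acts in a large complex with histone H4 and H2A among its substrates, is one of several enzymes that can place it. The genes described here lie outside the AP-1 and EGR families and mostly encode products that end or shape the response. ZFP36 and ZFP36L1 bind AU-rich mRNAs and speed their decay, BTG1 and BTG2 recruit deadenylases and slow proliferation, DUSP1 dephosphorylates MAP kinases, NR4A1 and KLF6 are transcription factors, and IER2, IER3 and IER5 are small regulators named for this kind of induction.

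Promoter sequence is shown for the members with the lowest and the highest centred M with shTIP60-B (IER2 and BTG1) and for those nearest to 0 (DUSP1 and IER5), so that the lowest and highest ratios can be set beside ratios close to the control. Each line holds the 250 bases before the RefSeq start site on GRCh38.p14, read along the gene, in lower case. Capitals mark TGACG or its longer form TGACGTCA (the cAMP response element, bound by CREB family factors), and TATAAA, on either strand. The windows are chr19:13150161-13150410 (plus strand) for IER2, chr12:92145847-92146096 (minus) for BTG1, chr5:172771196-172771445 (minus) for DUSP1 and chr1:181088450-181088699 (plus) for IER5. The H4ac regions are on hg19 and were not converted, so these windows were matched to them by gene name alone. By the deposited distances, only the DUSP1 region that gave the ratio spans the start site. The IER2 and BTG1 regions are centred 641 and 592 bp after it and the IER5 region 963 bp before it. Those ratios are thus not of the bases shown. The region over the IER5 start site had M = -1.63 (-3.61 to -0.29) with shTIP60-B, from 5 and 16 reads.
IER2: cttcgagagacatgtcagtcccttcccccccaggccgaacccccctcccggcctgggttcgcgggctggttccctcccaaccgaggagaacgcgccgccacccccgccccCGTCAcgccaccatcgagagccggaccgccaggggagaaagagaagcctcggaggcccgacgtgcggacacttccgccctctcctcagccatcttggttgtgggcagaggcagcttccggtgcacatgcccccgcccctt
BTG1: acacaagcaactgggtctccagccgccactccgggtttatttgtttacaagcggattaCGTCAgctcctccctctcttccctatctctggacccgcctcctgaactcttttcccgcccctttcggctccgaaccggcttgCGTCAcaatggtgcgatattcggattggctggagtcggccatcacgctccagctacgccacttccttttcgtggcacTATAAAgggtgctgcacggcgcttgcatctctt
DUSP1: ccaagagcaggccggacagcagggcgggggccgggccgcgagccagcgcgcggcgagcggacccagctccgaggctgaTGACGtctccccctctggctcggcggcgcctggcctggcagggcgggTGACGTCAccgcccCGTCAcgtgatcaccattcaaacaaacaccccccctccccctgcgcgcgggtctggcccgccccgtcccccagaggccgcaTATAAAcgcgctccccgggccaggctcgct
IER5: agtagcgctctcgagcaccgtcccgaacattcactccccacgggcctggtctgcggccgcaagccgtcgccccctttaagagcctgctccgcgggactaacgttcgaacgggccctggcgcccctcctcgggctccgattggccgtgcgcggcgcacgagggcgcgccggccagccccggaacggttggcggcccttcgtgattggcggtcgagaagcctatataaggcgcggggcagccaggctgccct

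Motifs were searched on both strands of the 300-base windows, from 250 before to 50 after the start site, in 11 windows of 9 members; IER3 was not matched. The DUSP1 window holds TGACGTCA with its first base 125 bases before the start site, further copies of TGACG, and TATAAA at 30 bases. BTG1 holds TATAAA at 33 bases and TGACG at 110 and 192 bases, and IER2 holds TGACG at 140 bases and no TATAAA. The IER5 window holds none of the marked motifs. TGACGTCA, which contains TGACG, was found in 2 of the 11 member windows (DUSP1 and ZFP36L1) and in 1.85% of 35116 windows of all genes. TGACG was found in 6 member windows, of 5 members (BTG1, BTG2, DUSP1, IER2 and ZFP36L1), and in 24.6% of all windows. TATAAA was found in 2 member windows and in 11.5% of all. GGGCGG, a GC box, was found in 7 member windows, each of another member, and in 45.0% of all windows. The EGR site GCGNGGGCG was found in 3 member windows (BTG2, KLF6 and ZFP36L1) and in 9.43% of all. The CArG box, to which serum response factor binds, was in none of the 11 member windows and in 1.29% of all windows. The windows of IER2, DUSP1 and IER5 had 69.7%, 73.3% and 67.3% G and C and that of BTG1 56.0%, beside a median of 58.7% over all windows. IER2, with the lowest ratio, and DUSP1, with one of the ratios nearest to 0, thus share a GC-rich start region. The IER2 ratio itself was read in a region after that window.

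Whether H4ac at these promoters differed after the first hairpin was read from shTIP60-B against shControl. H4ac was lower at a region just inside IER2 and, by less than 2-fold, at the NR4A1 promoter. BTG1, KLF6, DUSP1 and ZFP36L1 had M from -0.08 to 0.16, though the BTG1 interval (-0.48 to 0.54) leaves room for a difference either way. The region holding the KLF6 start site, outside the promoter limit, had M = -0.36 (-0.65 to -0.08). M was also below 0 at ZFP36 (-0.99), IER3 (-0.73) and IER5 (-0.29), with intervals that include 0. A promoter was called when its fold was at least 2 and its deposited p at most 1e-05, and 1 of 9 members, IER2, was called lower. Over all genes with a promoter region 3.67% were called lower and 0.962% higher, and none of the members was called higher. With centred ratios IER2 was again the 1 member called lower, beside 2.45% of all genes, and none was called higher, beside 0.788%. The median M of the 9 members was -0.29, beside -0.17 over all genes, and the median centred M was -0.25 beside -0.07. Centred instead on the median of the surrounding 10 Mb window, the members' median was 0.02, so the sign of the median rests on how long stretches of the genome are treated.

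The second hairpin, shTIP60-C, gave a library with more reads and was set against the same shControl library. IER5 and ZFP36 had the lowest ratios and KLF6 the highest, and all of them were within 2-fold of the control. No member was called in either direction, beside 0.0433% of all genes called lower and 0.104% called higher, with the same percentages for centred ratios. The median M of the 9 members was -0.21 beside -0.03 over all genes, and the median centred M was -0.13 beside -0.01. Both hairpins were compared with the same control library, so the control's counting error enters both values of a gene.

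**Figure D1:**
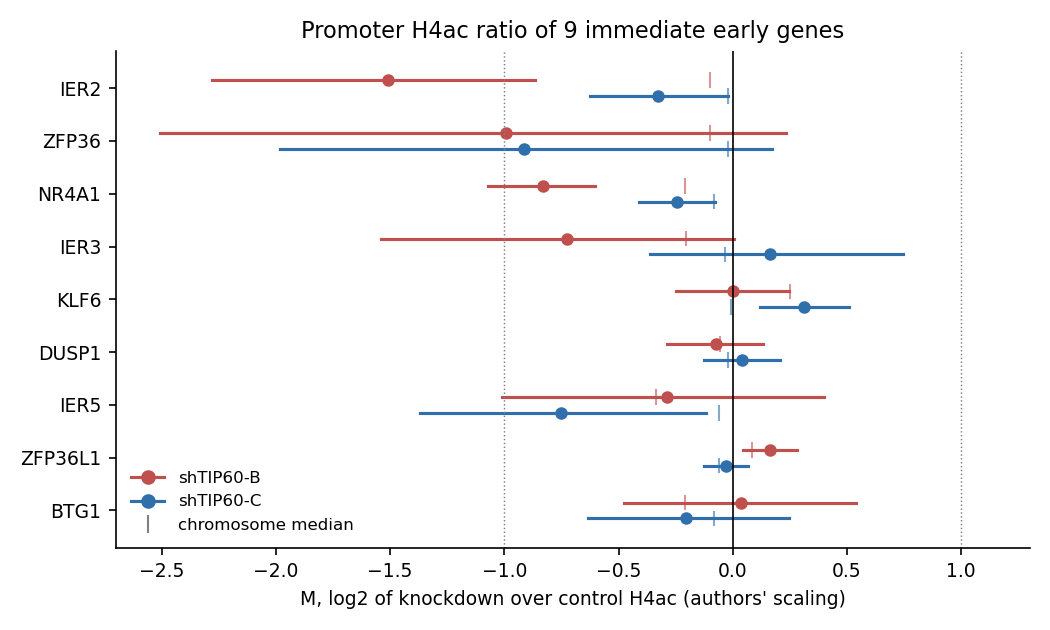
M (log2 of knockdown over control H4ac, authors' scaling, x axis) of the promoter region of 9 members, ordered by centred M with shTIP60-B; points are single libraries against the control, bars are 95% counting intervals, short ticks are chromosome medians and dotted lines mark a 2-fold difference. IER2 with shTIP60-B lies at -1.51 and NR4A1 at -0.83, and the bars of ZFP36, from 8 and 16 reads, are the widest.

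IER2 encodes a small nuclear protein that is induced by serum. In the shTIP60-B table its promoter region (chromosome 19, 13261613 to 13262233, hg19, centre 641 bp after the start site, annotated as promoter) held 24 knockdown and 73 control reads. M was -1.51 (-2.28 to -0.87) with a p of 4.5e-06 in the authors' deposited table, and -1.41 when centred. In the shTIP60-C table the IER2 region was another and wider one (13260552 to 13262598, spanning the start site) with 232 and 153 reads, M = -0.33 (-0.63 to -0.02). These regions are not the same stretch of DNA, so their ratios are not a comparison of the hairpins. The stretch listed alike in both tables is a 3125 bp control region (13260770 to 13263894) that spans the start site and contains the 621 bp shTIP60-B region. Its centre lies 1050 bp away, just outside the promoter limit. It held 490 control reads, 255 shTIP60-B reads with M = -0.58 (-0.80 to -0.36) and 744 shTIP60-C reads with M = -0.29 (-0.46 to -0.12). Used in place of the narrow region, it ends the IER2 call, as does an exact binomial p. Further into and past the gene, a control region centred 3896 bp from the start site and annotated as 3' UTR had M = 0.32 (0.04 to 0.60) and 0.12 (-0.12 to 0.36), and a region over the start of the neighbouring gene STX10 (13260717 to 13261224), on the other side, had 22 and 23 reads with shTIP60-B, M = -0.02. Regions of the knockdown lists that reach farther into and past the gene had M = -0.02 (-0.21 to 0.16) with shTIP60-B (13262504 to 13266743) and -0.07 (-0.23 to 0.08) with shTIP60-C (13262686 to 13266487). A small region past the gene (13266665 to 13267128) had 6 and 19 reads with shTIP60-B, M = -1.62 (-3.39 to -0.39), and 39 shTIP60-C reads, M = 0.03 (-0.76 to 0.94). With shTIP60-B the called stretch thus lay just after the start site, inside a wider region with M = -0.58 that spans the start site and runs on downstream. M was near 0 over the STX10 start, but from 22 and 23 reads only. That STX10 region overlaps the wider region, so it is not a separate flank and shows no upstream limit of the lower ratio. The downstream region with M = -0.02 overlaps the end of that wider region, and the ratios farther downstream were mixed.

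Among the transcription factors, NR4A1 (NUR77, an orphan nuclear receptor) had 490 control, 217 shTIP60-B and 768 shTIP60-C reads in its main promoter region (chromosome 12, 52443798 to 52445369, spanning a start site). M was -0.83 (-1.07 to -0.60) with shTIP60-B, p 3.5e-14 in the authors' deposited table, which misses the 2-fold limit and passes a 1.5-fold one. With shTIP60-C it was -0.25 (-0.41 to -0.08), p 2.0e-02. Both intervals lie below 0, and centred values were -0.62 and -0.16. NR4A1 has several annotated start sites, and they did not all look alike. The start site farther upstream (52430036 to 52431816) had M = -0.31 (-0.67 to 0.04) with shTIP60-B and 0.25 (-0.01 to 0.53) in the shTIP60-C library. Averaged over all its promoter regions, NR4A1 had a mean M of -0.58 for the B hairpin and 0.07 for the C hairpin, and the latter sign thus depends on the start site chosen.

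KLF6, a zinc finger factor of the Kruppel-like family, had 312 control, 244 shTIP60-B and 720 shTIP60-C reads in its promoter region (chromosome 10, 3827614 to 3828853, centre 760 bp before the start site). M was 0.00 (-0.25 to 0.25) and 0.31 (0.12 to 0.51). Chromosome 10 was high as a whole with shTIP60-B, so the centred M there was -0.25, but the 10 Mb window around KLF6 had a median of -0.22, and centred on that KLF6 had 0.22. Its sign with shTIP60-B is thus set by the stretch used for centring. The adjoining control region that holds the start site itself (3825109 to 3827556, centre 1141 bp inside the gene, outside the promoter limit) had M = -0.36 (-0.65 to -0.08) and 0.09 (-0.12 to 0.31).

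The mRNA decay factors differed in how much H4ac they carried. At ZFP36L1 the promoter region (chromosome 14, 69259036 to 69263479, 4444 bp wide) held 1335 control, 1026 shTIP60-B and 2375 shTIP60-C reads, the deepest counts among the members. M was 0.16 (0.04 to 0.28) with shTIP60-B and -0.03 (-0.13 to 0.07) in the shTIP60-C library, and scaled by the table totals the former was -0.10. A sign that turns with the scaling is no direction, and both values are small. ZFP36 (tristetraprolin) had 16 control, 8 shTIP60-B and 17 shTIP60-C reads in a 456 bp region of its intron (chromosome 19, 39897517 to 39897972, centre 257 bp after the start site). M was -0.99 (-2.51 to 0.23) and -0.91 (-1.98 to 0.17), and a difference of either sign was not detectable at this depth. A deeper region 3575 bp upstream of ZFP36 (39893148 to 39894676) had 183 control reads, with M = -0.69 (-1.07 to -0.33) from 96 shTIP60-B reads and 0.04 (-0.21 to 0.31) from 356 shTIP60-C reads.

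BTG1 had 71 control, 64 shTIP60-B and 119 shTIP60-C reads (chromosome 12, 92538524 to 92539638), with M = 0.03 (-0.48 to 0.54) and -0.21 (-0.63 to 0.25). Both intervals include 0. Its centred M of 0.24 was the highest of the members with shTIP60-B, on a chromosome whose median was -0.21. For BTG2, a p53 and growth signal target, the nearest regions used here lay 22201 bp or more from the start site, where M was 0.16 and 0.20 for the B hairpin and -0.19 and -0.11 for the C hairpin.

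The feedback phosphatase DUSP1 lay close to the control with both hairpins. It had 450 control, 325 shTIP60-B and 857 shTIP60-C reads (chromosome 5, 172197266 to 172200485, spanning the start site), with M = -0.08 (-0.29 to 0.13) and 0.04 (-0.13 to 0.21). These intervals leave room for a difference of up to 0.29 on the log2 scale. IER3, an apoptosis and ERK pathway regulator, had 42 control, 24 shTIP60-B and 92 shTIP60-C reads in a region over its exons (chromosome 6, 30711479 to 30712317), with M = -0.73 (-1.54 to 0.01) and 0.16 (-0.36 to 0.74). Its ratios have opposite signs with the hairpins, and both intervals include 0.

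IER5, which takes part in heat shock factor regulation, had 42 control, 32 shTIP60-B and 49 shTIP60-C reads in the region chosen (chromosome 1, 181056242 to 181057109). This region is centred 963 bp before the start site, just inside the promoter limit. M was -0.29 (-1.01 to 0.40) with shTIP60-B, or 0.05 centred on a chromosome that was low as a whole, and -0.75 (-1.37 to -0.12) with shTIP60-C. The small region over the start site itself (181057370 to 181057914) had 16 control, 5 shTIP60-B and 30 shTIP60-C reads, M = -1.63 (-3.61 to -0.29) and -0.11 (-0.995 to 0.90). Just downstream, a region listed for the shTIP60-C library (181057807 to 181059183, exon) had 111 and 29 reads, M = 0.95 (0.39 to 1.63). Neighbouring promoter regions of IER5 thus lay on opposite sides of 0 with shTIP60-C. The bounds of the higher one came from the shTIP60-C peak list, which can favour a higher ratio. None of the IER5 promoter regions was called.

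Levels can be compared between genes as RPKM (reads scaled to the length of the region and to the total reads in control regions), over the 36034 control regions that both tables list. These held 3638815 control, 2842710 shTIP60-B and 6746689 shTIP60-C reads. The control level was highest at NR4A1 with 85.7 (78.2 to 93.6), at the percentile 99.0 of all genes, and at ZFP36L1 with 82.6 (78.2 to 87.1), whose intervals overlap. KLF6 followed with 69.1 (61.7 to 77.3), apart from both, then the wide IER2 region with 43.1 (39.4 to 47.1) and DUSP1 with 38.4 (34.9 to 42.1), which overlap each other. BTG1 with 17.5, IER3 with 13.8, IER5 with 13.3 and ZFP36 with 9.64 all lay below the median gene at 20.9, and their intervals overlap. The group was thus split in the control cells between strongly acetylated regions and ones below the median. The regions of BTG1, IER3, IER5 and ZFP36 do not span the start site, and neither does that of KLF6. Levels were not corrected with the inputs, so they describe the regions chosen.

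In the shTIP60-B library the NR4A1 level was 48.6 (42.3 to 55.5), below its control interval, and the IER2 level was 28.7 (25.3 to 32.5), also below. ZFP36L1 with 81.2, KLF6 with 69.2 and DUSP1 with 35.5 had intervals that overlap those of the control. In the shTIP60-C library NR4A1 had 72.4 (67.4 to 77.7) and IER2 35.3 (32.8 to 37.9), both between the other libraries, and KLF6 had 86.1 (79.9 to 92.6), above its control interval. Of the genes with low levels, IER5 had 8.37 (6.19 to 11.1) with shTIP60-C beside 13.3 (9.58 to 18.0) in the control, which overlap. NR4A1 and IER2 were thus the 2 members whose intervals lay below that of the control with both hairpins. For IER2 this is the wide region outside the promoter limit. Both hairpins were set against the same control library, and the share of all genes that meet this criterion is not given here. The values are therefore not shown to set these members apart.

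**Figure D2:**
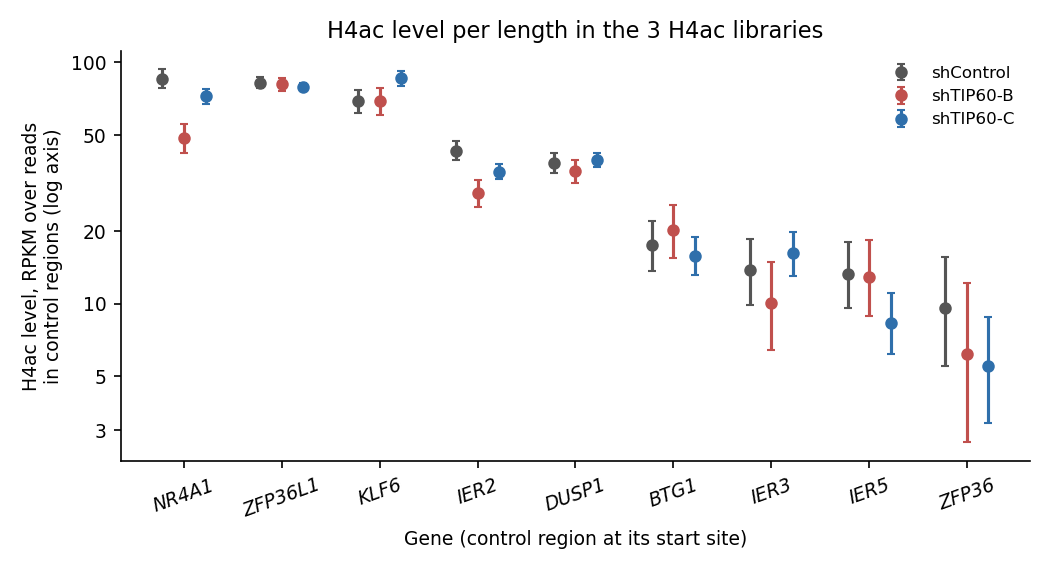
H4ac level (RPKM, scaled to the reads in control regions, log axis) at the control region of 9 members in the shControl, shTIP60-B and shTIP60-C libraries; points are 1 library each and bars are 95% counting intervals. NR4A1 lies at 85.7 in the control and 48.6 with shTIP60-B, while ZFP36L1 lies between 79.2 and 82.6 in all 3 libraries.

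The hairpins were compared with each other at control regions listed in both tables, where the control reads are the same and drop out of the difference of the M values. This was possible for 8 members, all with a promoter region except IER2. None differed 2-fold between the hairpins after centring, beside 5.15% of 10775 genes lower and 1.32% higher with shTIP60-B. The median centred difference, shTIP60-B minus shTIP60-C, was -0.04, beside -0.07 over all genes. Single genes spread to both sides. With shTIP60-B the centred ratio was lower at IER3, by -0.72 (-1.47 to -0.10), at KLF6, by -0.57 (-0.78 to -0.36), and at NR4A1, by -0.46 (-0.69 to -0.24). It was higher at IER5, by 0.74 (0.04 to 1.4). The size at KLF6 rests on chromosome 10, since it was -0.31 (-0.53 to -0.10) uncentred and -0.22 (-0.44 to -0.01) centred on the 10 Mb window. Uncentred, IER5 had 0.46 (-0.24 to 1.12), which includes 0, and ZFP36L1 had 0.19 (0.09 to 0.30), which does not. DUSP1 had -0.08 (-0.27 to 0.11), ZFP36L1 0.05 (-0.06 to 0.16), BTG1 0.37 (-0.10 to 0.81) and ZFP36 0.00 (-1.51 to 1.20), all with intervals that include 0 after centring. The wide IER2 region, outside the promoter limit, had -0.21 (-0.42 to -0.00). IER3, KLF6 and NR4A1 thus lay lower with shTIP60-B beyond counting error uncentred and with either centring, while which gene lay higher depended on the centring. Over all genes the quartiles of the centred difference were -0.39 and 0.22. The share of all genes whose interval excludes 0 is not given here, so these differences are not shown to set the members apart. No spread between cultures was measured.

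**Figure D3:**
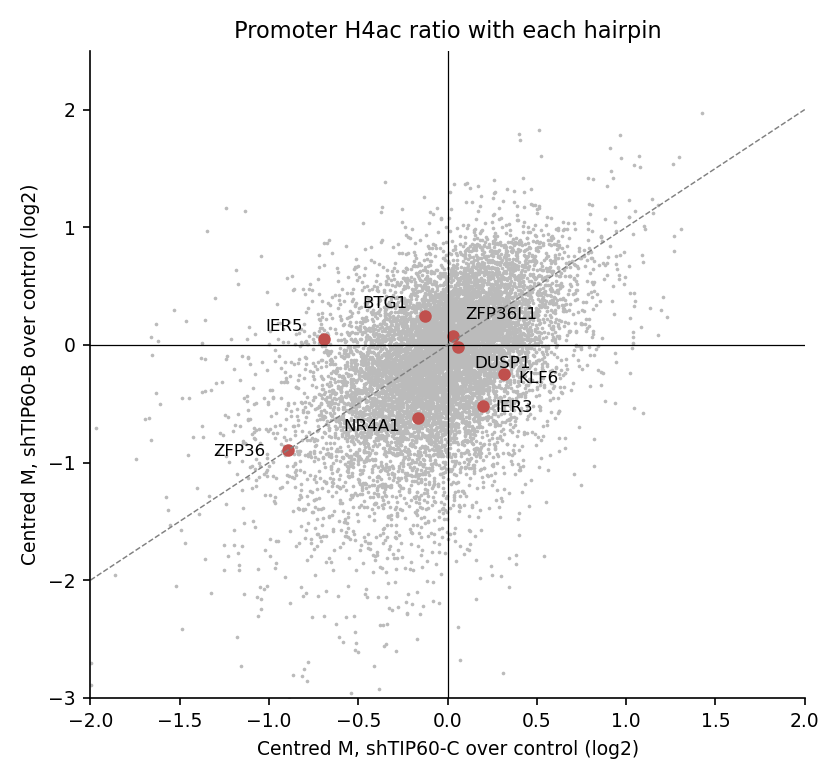
Centred M with shTIP60-B (y axis) against centred M with shTIP60-C (x axis), both log2, for 10775 genes with a promoter control region in both tables (grey; 17 lie outside the axes) and 8 members (red); the dashed line marks equal values. Both axes share the control library; IER3, KLF6 and NR4A1 lie below the dashed line and IER5 above it.

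Farther than 1000 bp from a start site, each table listed 88 regions whose nearest gene was a member, copies included. With shTIP60-B 4 of them were called lower, beside 3.13% of 40667 distal regions, and none higher, beside 2.61%. With shTIP60-C none was called lower, beside 0.0603% of 43139, and 1 was called higher, beside 0.283%. The median M of the members' distal regions was -0.15 with shTIP60-B, beside -0.06 over all distal regions, and -0.03 with shTIP60-C, beside -0.03.

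All 4 lower calls with shTIP60-B lay downstream of IER5, at 2 places listed as copies. The place 16339 bp from the start site (chromosome 1, 181073390 to 181074564, intergenic) had 187 control, 49 shTIP60-B and 246 shTIP60-C reads, with M = -1.76 (-2.27 to -1.32), p 1.5e-17 in the authors' deposited table, and -0.53 (-0.81 to -0.25). The place 30308 bp away (181086120 to 181089773, intergenic) had 453, 179 and 548 reads, with M = -1.02 (-1.28 to -0.77), p 3.5e-18, and -0.63 (-0.81 to -0.44), p 2.0e-08. Both places had intervals below 0 with both hairpins, where the IER5 promoter region chosen had one below 0 with shTIP60-C alone. Centred, the 16339 bp place had -1.43 with shTIP60-B and the 30308 bp place -0.68, which ends the call of that control copy. With shTIP60-B the 10 Mb window around the IER5 promoter region had a median M of -0.60, below the chromosome median of -0.34. Centred on that window, the promoter region had 0.32. The 2 distal places were not centred on that window, so whether their calls hold there was not tested. The nearest gene in the annotation is not shown to be the gene these places serve.

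The higher call with shTIP60-C lay 4548 bp upstream of ZFP36L1 (chromosome 14, 69267000 to 69268016, intergenic) with 120 knockdown and 18 control reads, M = 1.73 (1.07 to 2.60), p 8.9e-07 in the authors' deposited table. The region is listed as unique to the shTIP60-C peak list, with no matching control peak. A high ratio was thus favoured by how the region was picked, and its p and interval do not allow for that. None of the shTIP60-B regions used here overlaps it. Within NR4A1 an intronic region 5341 bp before the main start site (52439371 to 52440319) had 48 control and 195 shTIP60-C reads, M = 1.07 (0.63 to 1.58), p 1.8e-05, just short of the p limit, and M = -0.14 (-0.78 to 0.49) from 40 shTIP60-B reads. Nearby, 4295 bp before the upstream start site, a region (52426600 to 52427809) had M = -0.83 (-1.29 to -0.40) and -0.55 (-0.89 to -0.21). With shTIP60-C, ratios on either side of 0 therefore lay within the same gene.

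**Figure D4:**
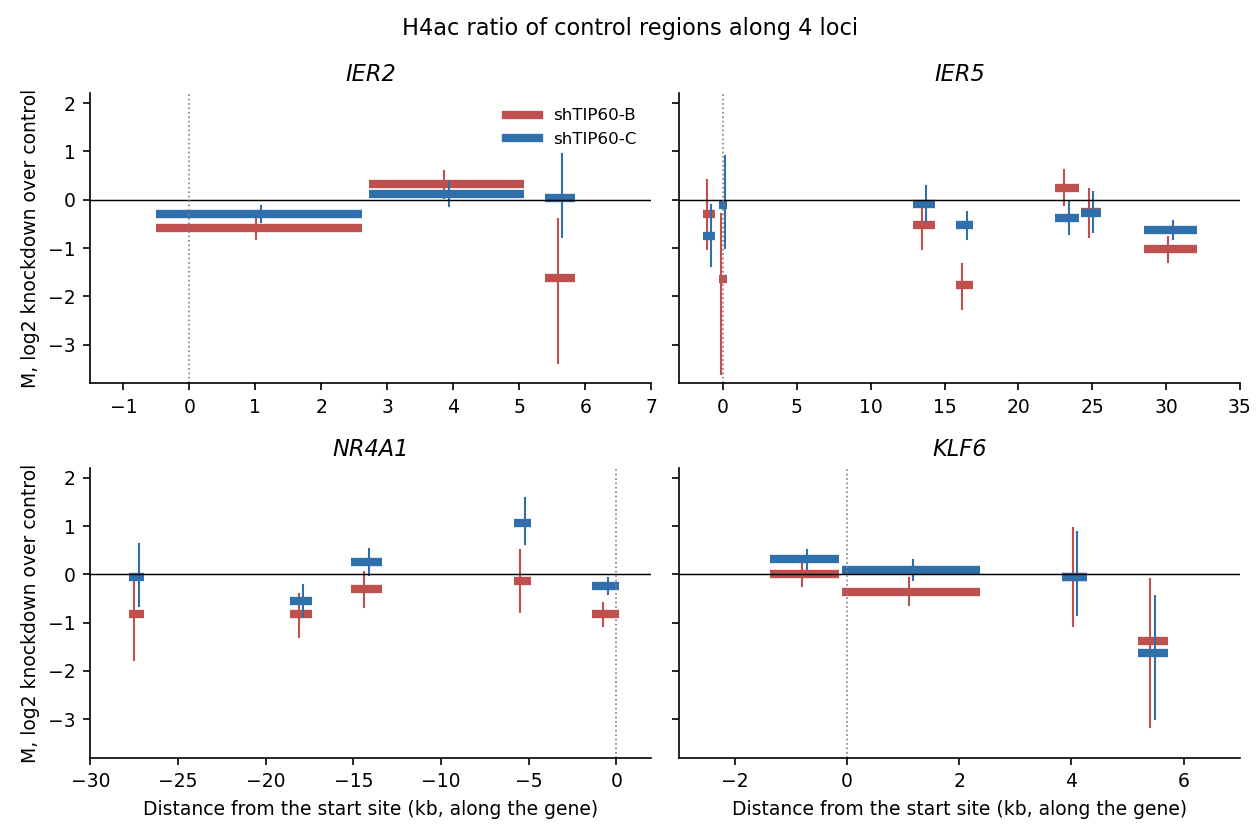
M (log2 of knockdown over control, y axis) of control regions nearest to IER2, IER5, NR4A1 and KLF6 against distance from the start site in kb along the gene (for NR4A1, the start site of its main promoter region); thick bars span a region and thin lines are 95% counting intervals. The region 16339 bp downstream of IER5 lies at -1.76 with shTIP60-B and -0.53 with shTIP60-C, and the intronic NR4A1 region at 1.07 with shTIP60-C.

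Other genes of the early response give the setting. Of 13 early transcription factor genes, those of the AP-1 and EGR families and SRF, 13 had a promoter region with shTIP60-B, with a median M of -0.39, and 2 were called lower: EGR4, M = -1.20 (-1.60 to -0.83), and SRF, the gene of serum response factor, which belongs to neither family, M = -1.95 (-2.43 to -1.54). The lowest ratios in this list were FOSB with M = -2.30 and EGR3 with M = -2.21, from 7 and 6 knockdown reads and not called, and the highest was FOSL1 with 0.43. With shTIP60-C 12 had a promoter region, with a median of -0.06, and none was called. SRF had -0.18 (-0.41 to 0.06) there and EGR4 -0.04 (-0.28 to 0.21).

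Of 25 paralogs of the members 23 had a promoter region with each hairpin. None was called, and the median M was -0.42 with shTIP60-B and -0.17 with shTIP60-C. KLF5 had the lowest ratio with shTIP60-B, M = -2.59 (-4.83 to -1.33), from 4 and 26 reads, followed by the NR4A1 paralog NR4A3 with M = -1.27 (-2.16 to -0.52), and DUSP2 had the highest, M = 0.78 (0.50 to 1.06). Of 23 other immediate early genes 20 had a promoter region, with medians of -0.30 and -0.17. SGK1, a kinase gene of the survival response, was called lower with shTIP60-B, M = -1.82 (-2.74 to -1.09), and none was called with shTIP60-C. The 3 lists together had 3 genes called lower and none higher with shTIP60-B, set beside the 3.67% and 0.962% of all genes.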

How the data were processed

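H1975 chromatin was fixed in 1% formaldehyde for 10 min and sequenced as paired-end reads of 75 bp, per the labels' protocols. Bowtie2, MACS 1.4.2 and hg19 are named per the submitters' processing notes. Read counts per region are deposited whole numbers, not normalised. M and A, the log2 ratio and mean log2 signal rescaled by the authors with MAnorm, and the −log10 of the p-value are deposited too, per the file headers, with gene names and distances from HOMER. Their version is not given in the sources used here. Read columns were assigned to libraries by the comparison that the file headers name; the 36034 shared control regions have identical control counts in the tables, and 134 have identical knockdown counts. Infinite p-values (11 with shTIP60-B, 3 with shTIP60-C) counted as past the limit and missing ones (11 and 1) as not past it.

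A gene was represented by its control-list promoter region with most control reads, or, with none, by its promoter region of highest A. Intervals are exact Clopper-Pearson intervals of the knockdown and control reads at 95% confidence, shifted by the authors' rescaling. With 1 library per group no test between conditions was possible. The calculation was tested on simulated data. Promoter sequences are RefSeq's for GRCh38.p14. The members, gene lists and tests were chosen with earlier results of these data known. All 10 members are named; of other genes only those called or among the lowest or highest 2 of a list. Alternatives were other fold and p limits, an exact binomial p, scalings, ways to pick or average regions, a 3 kb promoter, a filter on low signal and other centring; using regions that span the start site, leaving the hairpin difference uncentred, and window centring of single hairpin differences were added after seeing the data. Python 3.11.15, pandas 2.3.3, numpy 2.4.6, scipy 1.17.1 and matplotlib 3.10.9 were used.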

Additional observations from a re-analysis of the deposited data

How the results depend on the processing

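The count of members called lower with shTIP60-B, 1 (IER2) in the report, was 0 with a promoter limit of 3 kb, 0 when a region spanning the start site could represent a gene (an alternative chosen after seeing the data) and 0 with an exact binomial p. It was 2 with a fold of 1.5 (IER2 and NR4A1). The first 2 settings replace the narrow IER2 region by the wide one, whose M is -0.58; the cause of the change with the binomial p was not tested. The count stayed at 0 with shTIP60-C under every alternative run. The members' median M was below 0 with both hairpins under every alternative, between -0.58 and -0.13 for the B hairpin, between -0.21 and -0.03 for the C hairpin. In the report the median over all genes was below 0 too, at -0.17 and -0.03. Regions were picked there by control reads where possible, which can favour lower ratios. The ZFP36 region with both hairpins and the IER3 region with shTIP60-B were unique to the control peak list. The centred median was 0.02 with shTIP60-B when centred in 10 Mb windows and 0.03 with shTIP60-C when averaged over promoter regions, so its sign is not settled. The centred difference between hairpins, -0.04, ran from -0.38 when averaged over promoter regions to 0.04 in 10 Mb windows. Of values for single members 84 stayed inside their counting interval and 6 moved out of it: ZFP36L1 with shTIP60-B (-0.10 by totals, -0.04 with the median promoter region at 0), NR4A1 (-0.58 and 0.07) and IER5 (-0.08 with shTIP60-C) averaged over promoter regions, and IER2 in its wide region. No paired analysis was possible because each group has 1 library, and the p-values compare read counts of single libraries. Median depth of 49 to 111 reads per region leaves the ratios of ZFP36, IER3 and IER5 loose, and no spread between cultures was measured.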
